A study of Mus musculus with 17 samples.

Results

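The genes described here serve protein folding in the endoplasmic reticulum (ER) and the unfolded protein response of mouse pancreatic cells. They are 35 genes chosen by symbol, and all 35 were present among the 40824 genes of the deposited table of unique molecular identifier (UMI) counts. By role they comprise 10 luminal chaperones and co-chaperones, 2 lectin chaperones, 5 disulfide enzymes, 4 genes of the protein translocation channel, 9 genes of ER-associated degradation (ERAD), 4 stress sensors or transcription factors, and Wfs1, whose product is an ER membrane protein. A further 64 genes of the same pathways, which are not among the 35, were followed as a related list.

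Secretory cells thread new proteins into the ER through the Sec61 channel. There the chaperone BiP (Hspa5), its partners and the protein disulfide isomerases fold them, and proteins that do not fold are pulled back to the cytosol and degraded through ERAD. When unfolded protein builds up, the sensors IRE1 (Ern1), PERK (Eif2ak3) and ATF6 (Atf6) are activated, and ATF6 and spliced XBP1 (Xbp1) raise transcription of chaperone and ERAD genes. Beta cells fold large amounts of proinsulin and acinar cells large amounts of digestive enzymes, so both depend on this machinery.

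Single RFP+ cells were sorted from the pancreas of Ngn3-Cre; Rosa-RFP mice, in which the Ngn3 promoter drives Cre and the Cre activates a red reporter from the Rosa locus. All groups shared this genotype. Streptozotocin (STZ), a toxin taken up by beta cells, was given to male mice aged 2 months as 1 intraperitoneal dose of 200 mg/kg after an overnight fast, and adult Control mice received the citrate buffer. STZ mice with insulin implants were sampled at days 6, 12, 30 and 42 (STZ_D6, STZ_D12, STZ_D30, STZ_D42) and at months 2, 5 and 9 (STZ_M2, STZ_M5, STZ_M9), 1 library for each time except day 12, which had 2. The month 9 implants were discontinuous in the last 2 months. STZ mice without implants were sampled at month 2 (STZ_M2_NoIns, 2 libraries). Untreated pups were sampled at postnatal days 3, 12 and 21 (P3, P12, P21), with 2 libraries at P12 and 1 at each other age. Control had 3 libraries, which makes 17 libraries in 12 groups. The labels do not say whether replicates came from separate mice, so p-values measure only the spread between these libraries, which may be technical. Time after STZ and age moved together and cannot be told apart.

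Many genes of the unfolded protein response carry an ER stress response element (ERSE) near their start, to which the general factor NF-Y (at CCAAT) and ATF6 or XBP1 (at CCACG) bind. Of the 35 genes, 30 had an entry in a RefSeq promoter table of build GRCm38.p6, and the 250 bases before their start were searched on both strands. The ERSE, spelled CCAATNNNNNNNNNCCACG, was found in 9 of the 30, against 35 of 27025 genes with a promoter entry (0.13%), a number that includes the 9. The ERSE-II, spelled ATTGGNCCACG, was found in 1 of the 30, Herpud1 (3.33%), against 10 of 27025 genes (0.037%). The ATF6 and XBP1 element TGACGTGG was found in 0 of the 30, against 163 of 27025 genes (0.603%). No element found in the 35 genes belonged to more than 1 of these motifs. Since many genes of this response are known to carry an ERSE, choosing such genes by name favours it, and these shares are a description. The matched elements of the 10 of 30 genes that held an ERSE or ERSE-II are printed. Each is written 5′ to 3′ in the direction of the element with 6 bases on either side, capitals marking the element.
Hspa5 ERSE: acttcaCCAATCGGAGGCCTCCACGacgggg
Hsp90b1 far ERSE: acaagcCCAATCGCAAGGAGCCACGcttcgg
Hsp90b1 near ERSE: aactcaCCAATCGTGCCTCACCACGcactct
Dnajc3 ERSE: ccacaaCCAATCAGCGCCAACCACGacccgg
Creld2 ERSE: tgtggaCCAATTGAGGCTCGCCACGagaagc
Calr ERSE: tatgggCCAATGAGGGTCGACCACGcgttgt
Canx ERSE: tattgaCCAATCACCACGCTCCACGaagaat
Pdia6 ERSE: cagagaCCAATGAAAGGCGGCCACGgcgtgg
Syvn1 ERSE: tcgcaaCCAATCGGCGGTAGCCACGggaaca
Derl3 ERSE: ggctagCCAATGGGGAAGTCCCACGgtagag
Herpud1 ERSE-II: gcgctgATTGGGCCACGttggac

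The nearest match to a start was that of Syvn1, 26 to 44 bases before it, and the farthest was the far ERSE of Hsp90b1, 194 to 212 bases before it. The elements of Creld2, Calr and Derl3 and the near ERSE of Hsp90b1 ran opposite to the gene. The Hspa5 promoter, chr2:34771840-34772089 (plus strand), is shown whole, since Hspa5 encodes BiP, the chaperone that binds the sensors. Its ERSE, at 47 to 65 bases before the start, is in capitals.
Hspa5 promoter: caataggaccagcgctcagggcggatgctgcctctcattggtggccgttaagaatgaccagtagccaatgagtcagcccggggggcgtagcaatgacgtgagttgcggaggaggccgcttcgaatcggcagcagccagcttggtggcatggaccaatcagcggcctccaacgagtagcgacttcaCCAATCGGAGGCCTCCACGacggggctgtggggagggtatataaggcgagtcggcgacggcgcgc

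The table held 2999 cells, and library totals ran from 1420536 UMIs (Control replicate 3, 22 cells) to 26298456 UMIs (STZ_D30, 277 cells). Clustering without the 35 genes and the related list gave 1015 beta, 583 alpha, 273 delta, 166 PP, 652 acinar and 102 ductal cells by their markers, and 208 cells in 3 clusters that stayed unnamed. Acinar cells had the highest median UMI total (132106), against 61298 in beta, 44166 in alpha, 36994.5 in PP and 36595 in delta cells. UMIs were summed per library and cell class, and levels are given as CPM, the UMIs of a gene per 1000000 UMIs of that sum. Sums of at least 10 cells were used for comparisons between classes and within alpha and acinar cells, and comparisons within beta cells used all 17 beta sums, the smallest of which held 5 cells. Levels compare 1 gene across classes or libraries, and levels of different genes are not set against each other. Hormone and digestive enzyme genes together took 46.4 to 61.6% of UMIs in acinar sums, 19.3 to 30.3% in beta sums and 12.5 to 23.1% in alpha sums, so a level relative to all UMIs depends on them. Tests therefore used TMM (trimmed mean of M values) scaling, and class differences were also fitted with totals that left these genes out. Called means an adjusted p under 0.05 over all genes in edgeR's quasi-likelihood test with Benjamini-Hochberg adjustment.

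Beta cells stood above alpha cells in nearly the whole machinery. In 1 fit over 5 cell classes with the library as a block, 32 of the 35 genes were higher in beta cells and 0 were lower, where 14.5% of all genes tested were higher, 12.2% were lower and 26.7% were called in either direction. The median log2 difference of beta over alpha cells was 1.15 for the 35 genes and -0.02 for all genes. All 10 luminal chaperones, both lectin chaperones, all 5 disulfide enzymes, all 4 translocon genes, 8 of 9 ERAD genes, 2 of 4 sensors and factors, and Wfs1 were higher. With totals free of hormone and enzyme genes the same 32 genes were called higher, and the median of all genes moved by only 0.086.

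Wfs1, mutated in Wolfram syndrome with diabetes, differed most. Its level ran from 58.3 to 133.7 CPM in 15 beta sums (median 93.7) and from 4.80 to 28.7 in 13 alpha sums (median 13.4). The ranges did not overlap, and the log2 difference was 2.91 ± 0.20 (SE; 7.49-fold, adjusted p = 2.69e-17). Sdf2l1, a chaperone cofactor of the BiP complex, ran from 114.9 to 446.4 CPM in beta sums (median 265.7) and from 14.4 to 71.1 in alpha sums (median 46.8). These ranges did not overlap either, and the log2 difference was 2.59 ± 0.17 (adjusted p = 7.36e-18). Hspa5 itself averaged 1916 ± 573 CPM in beta sums (SD, n = 15) and 818 ± 189 in alpha sums (n = 13). Its lowest beta sum (1242) lay above its highest alpha sum (1131), and the log2 difference was 1.25 ± 0.12 (adjusted p = 2.63e-12).

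Other luminal members followed. Creld2, a secreted ER protein induced by stress, was 3.69-fold higher in beta than in alpha cells. The J-domain partners of BiP were higher by 3.27-fold for Dnajb11, 3.11-fold for Dnajc3 and 2.74-fold for Dnajb9. Hyou1, which exchanges the nucleotide of BiP, was 2.95-fold higher. Of the disulfide enzymes, Pdia6 was 2.97-fold, P4hb 2.42-fold and Pdia3 2.05-fold higher. Among ERAD genes, Edem2, which trims mannose from misfolded glycoproteins, was 3.45-fold higher. Derl3 (6.39-fold) and Edem1 (3.88-fold), a channel-associated protein and a mannose-trimming protein of ERAD that are named here after their values were seen, were also higher.

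Not every sensor gene followed. Ern1 averaged 41.3 ± 14.2 CPM in beta sums (n = 15) and 50.96 ± 14.9 in alpha sums (n = 13), a log2 difference of -0.17 ± 0.15 (adjusted p = 0.445). Eif2ak3 differed by 0.36 ± 0.21 (adjusted p = 0.23) and Syvn1, the ERAD ubiquitin ligase, by 0.60 ± 0.25 (adjusted p = 0.0728). Xbp1 was called higher, but by only 1.25-fold (adjusted p = 0.0278). Counts of UMIs do not show splicing of Xbp1 or phosphorylation of the sensors.

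Compared within libraries, 28 of the 35 genes were higher in beta than in alpha cells in every one of the 11 libraries that held at least 10 of each, as were 6.47% of all genes. Hspa5 was higher in all 11, by 0.34 to 1.75 on the log2 scale of CPM, while Ern1 was higher in 4 of 11. As a description with no test, 20 genes were higher in beta than in delta cells in all of 10 libraries (4.59% of all genes), and 24 were higher in beta than in PP cells in all of 5 (12.5% of all genes). Sdf2l1 was higher in beta than in delta cells in 10 of 10 libraries, with a median log2 difference of 2.28. Wfs1 was higher in 8 of 10 libraries with a median of only 0.20, so delta cells lay near beta cells in Wfs1 and alpha cells did not. Xbp1 was lower in beta than in PP cells in all 5 libraries.

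Acinar cells differed from beta cells in a mixed way. Of the 9 ERAD genes, 6 were higher and 2, Derl2 and Selk, were lower, and Pdia3 and Wfs1 were far lower. In the same fit 20 of the 35 genes were higher and 7 lower in acinar cells, where 28.9% of all genes were higher, 33.4% were lower and 62.3% were called in either direction. The share of members called, 27 of 35, thus stood against a background in which most genes were called. The median log2 difference of acinar over beta cells was 0.57 for the 35 genes and -0.09 for all genes. With totals free of hormone and enzyme genes, the median of all genes shifted by -0.89 to -0.98, and 11 of the 35 were higher and 17 lower, against 12.1% and 60.9% of all genes. Relative to the median of all genes, 27 of the 35 lay above it. Only 11 genes were called higher and 7 lower under both scalings, and the following values are of those unless stated.

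ERAD genes led the higher group. Sel1l, the scaffold of the ubiquitin ligase Syvn1, ran from 451.8 to 1215 CPM in 10 acinar sums (median 819.3) and from 86.6 to 217.7 in 15 beta sums (median 126.3). Every acinar sum lay above every beta sum, and the log2 difference was 4.34 ± 0.15 (20.2-fold, adjusted p = 7.91e-31), or 3.43 with the other totals. Edem1 ran from 173.2 to 392.03 CPM in acinar sums (median 225.4) and from 26.8 to 96.3 in beta sums (median 55.5). The groups did not overlap, and the log2 difference was 3.68 ± 0.22 (12.8-fold, adjusted p = 4.97e-21), or 2.77 with the other totals. Derl3 averaged 138.5 ± 41.9 CPM in acinar sums (n = 10) and 36.0 ± 21.7 in beta sums (n = 15). Its log2 difference was 3.72 ± 0.27 (13.2-fold, adjusted p = 5.37e-18), or 2.81 with the other totals. Its groups overlapped through 1 beta sum, that of STZ_M5 at 99.4, while the lowest acinar sum was 69.3. Under TMM, Edem2 (4.45-fold) and Herpud1 (4.17-fold), a membrane protein that recruits ERAD factors, were higher too, as was Syvn1 (2.98-fold). With the other totals their log2 differences were 1.235, 1.155 and 0.703. Mean CPM in acinar and beta sums was 315 and 210 for Edem2, 535 and 368 for Herpud1, and 27.3 and 25.5 for Syvn1.

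Of the sensors and factors, Eif2ak3 and Xbp1 were higher in acinar cells under both scalings. Eif2ak3, which phosphorylates the initiation factor eIF2α and so slows translation, ran from 33.7 to 161.6 CPM in acinar sums (median 60.0) and from 12.8 to 32.8 in beta sums (median 20.7). The groups did not overlap, and the log2 difference was 3.04 ± 0.23 (8.23-fold, adjusted p = 2.80e-17), or 2.14 with the other totals. Xbp1 averaged 484 ± 93.6 CPM in acinar sums (n = 10) and 387 ± 69.1 in beta sums (n = 15), which overlap widely on this scale, and its log2 difference under TMM was 1.91 ± 0.12 (3.76-fold), or 0.99 with the other totals. Atf6 was called under TMM only, with 1.03 ± 0.18 (adjusted p = 1.83e-06) against 0.15 (adjusted p = 0.501) with the other totals. Ern1 was not called under TMM (0.16 ± 0.16, adjusted p = 0.375) and was lower with the other totals (-0.72). Under TMM, P4hb, the protein disulfide isomerase itself, was 3.40-fold, Sec61a1, the channel subunit, 2.90-fold, and Dnajb11 2.93-fold higher in acinar cells. With the other totals their log2 differences were 0.85, 0.63 and 0.63. On CPM the acinar mean was above the beta mean for P4hb (1187 and 996). It was below the beta mean for Sec61a1 (181 and 216) and Dnajb11 (139 and 154).

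The lower group held Pdia3 and Wfs1 with the greatest differences. Pdia3, the disulfide isomerase that works with calnexin and calreticulin, ran from 34.8 to 112.0 CPM in acinar sums (median 81.2) and from 824.9 to 1456 in beta sums (median 1069). Every acinar sum lay far below every beta sum, and the log2 difference was -2.38 ± 0.13 (adjusted p = 1.62e-23). Wfs1 ran from 1.85 to 23.5 CPM in acinar sums (median 6.74) and from 58.3 to 133.7 in beta sums, again with no overlap. Its log2 difference was -2.05 ± 0.21 (4.13-fold lower, adjusted p = 1.77e-12). Dnajb9 (-1.31), Dnajc10 (-1.23), a disulfide reductase with a J domain, the ERAD genes Selk (-0.68), which encodes a selenoprotein, and Derl2 (-0.56), and Hsp90b1 (-0.52), the ER paralogue of HSP90, made up the rest. Summed beta markers made up 770 to 19566 CPM of the STZ and 13247 to 22261 CPM of the Control acinar sums, and their part in these differences was not tested.

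Several chaperones had no direction that held under both scalings. Hspa5 averaged 732 ± 245 CPM in acinar sums (n = 10) and 1916 ± 573 in beta sums (n = 15). Under TMM its log2 difference was 0.18 ± 0.13 (adjusted p = 0.216), and with the other totals it was -0.72 (adjusted p = 6.72e-07). Manf, a secreted ER factor that binds BiP, behaved likewise (0.08 ± 0.14 and -0.84). Sdf2l1 was called higher under TMM (0.61 ± 0.18, adjusted p = 0.00226) and was at -0.32 (adjusted p = 0.0749) with the other totals. Dnajc3 was called higher under TMM (1.10 ± 0.13) and not with the other totals (0.18, adjusted p = 0.118). Canx and Sec61b were called higher under TMM and lower with the other totals.

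**Figure D1:**
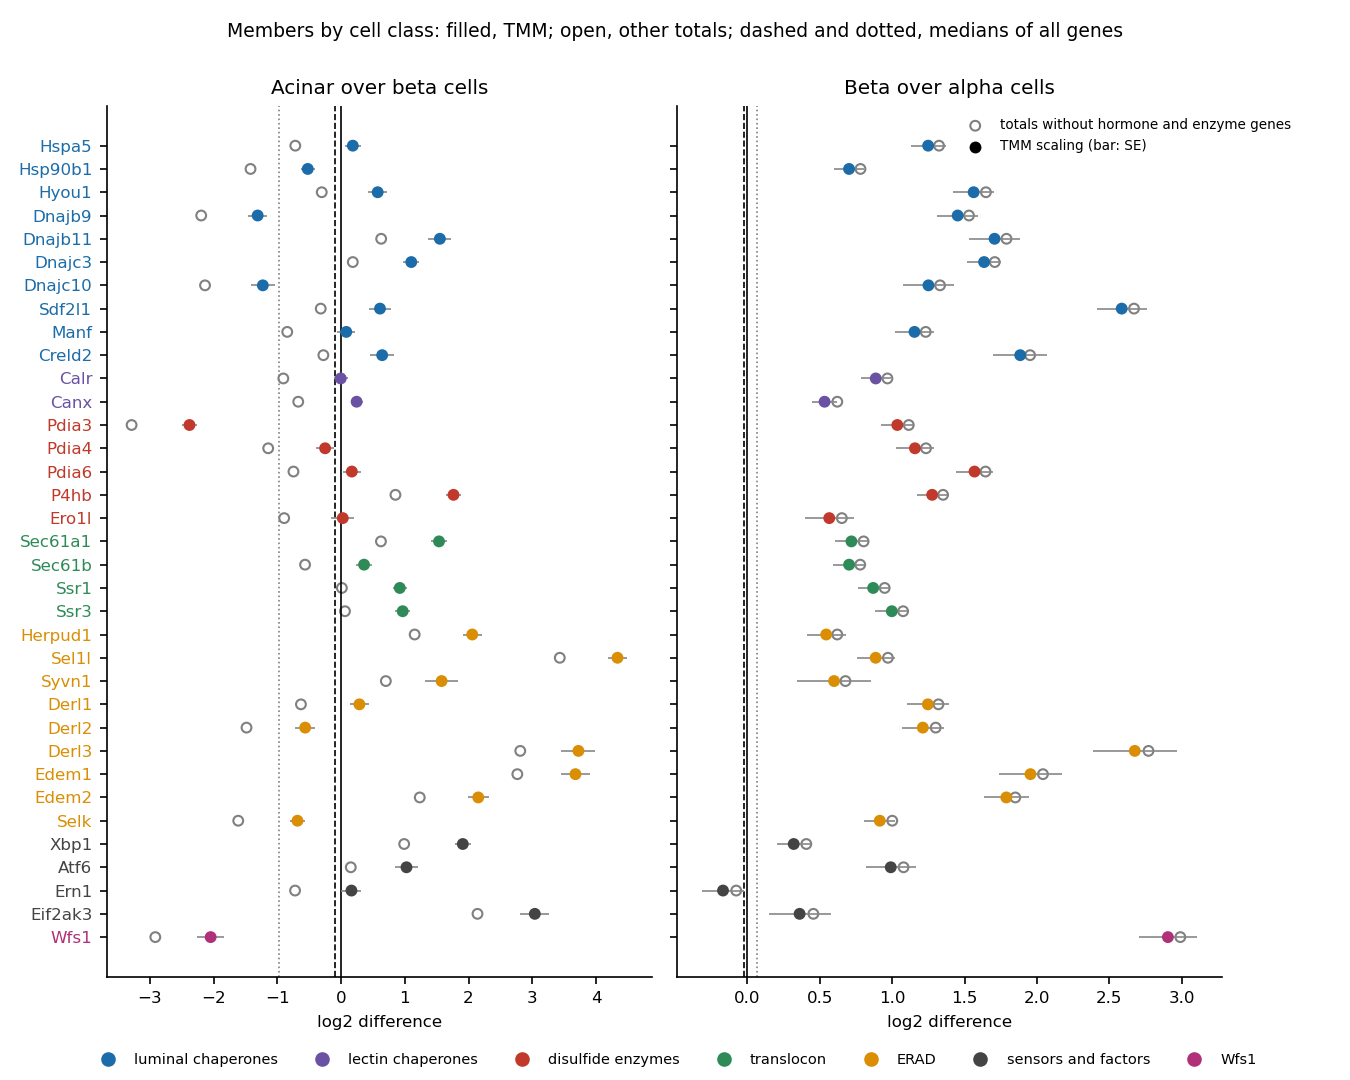
Log2 differences of the 35 genes for acinar over beta cells (left) and beta over alpha cells (right), coloured by role, with filled points for TMM scaling (bars, SE) and open points for totals without hormone and enzyme genes; dashed and dotted lines are the medians of all genes under each. On the left the open points sit below the filled ones by about the shift of -0.89, and on the right 34 of 35 filled points lie above 0.

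Within 9 libraries that held at least 10 acinar and 10 beta cells, 8 genes were higher and 15 lower in acinar cells in every library, on levels relative to UMIs without hormone and enzyme genes, where 8.29% of all genes were higher and 41.6% lower in every library. On CPM the counts were 4 higher and 23 lower, against 4.67% and 58.4% of all genes. Against alpha cells, 29 of the 35 genes were higher in acinar cells and 1, Pdia3, was lower, where 30.2% of all genes were higher, 34.7% were lower and 64.9% were called in either direction. With the other totals, which shifted the median of all genes by -0.81, 23 of the 35 were higher and 6 lower, against 15% and 58.1% of all genes. The 6 were Pdia3, Hsp90b1, Dnajb9, Dnajc10, Selk and Ern1. Derl3 (log2 difference 6.40 ± 0.30), Edem1 (5.63 ± 0.24) and Sel1l (5.22 ± 0.15) again led, and Pdia3 was at -1.34 ± 0.12. Wfs1 was at 0.86 ± 0.21 in acinar over alpha cells under TMM (adjusted p = 4.42e-04) and at 0.08 with the other totals (adjusted p = 0.775), and its mean CPM was lower in acinar (8.13) than in alpha sums (13.8).

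**Figure D2:**
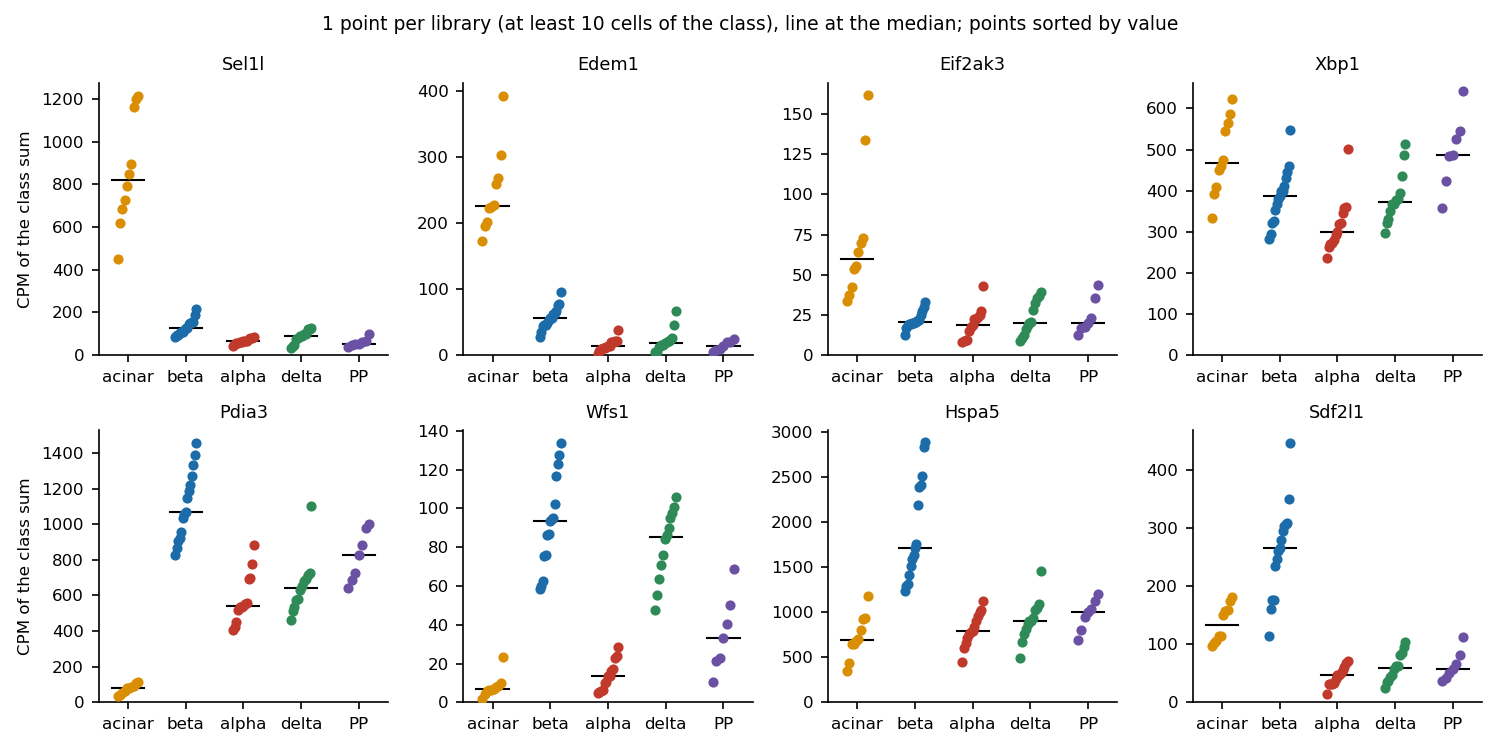
CPM of the class sum (linear axes from 0) for 8 of the 35 genes, 1 point per library, with lines at the medians of acinar, beta, alpha, delta and PP sums. Sel1l and Edem1 are highest in acinar sums with no overlap, and Pdia3 is lowest there with no overlap, at 34.8 to 112.0. Wfs1 has its lowest median in acinar sums (1.85 to 23.5) but overlaps alpha (4.80 to 28.7) and PP sums (10.7 to 68.7).

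By mean CPM, beta cells ranked first of the 5 classes for 25 of the 35 genes, acinar cells for 8, alpha cells for 1 (Ern1) and PP cells for 1 (Xbp1). On levels relative to UMIs without hormone and enzyme genes, beta cells ranked first for 20, acinar cells for 14 and delta cells for 1 (Ern1). The classes were not ranked over all genes, so these counts have no background. Of all genes, 58.4% on CPM and 41.6% on the other scale were lower in acinar than in beta cells in every one of 9 libraries. Dnajb11, Dnajc3, Sec61a1, Ssr3 and Atf6 had their highest mean in beta cells on CPM and in acinar cells on that scale. On CPM, for Xbp1, the PP mean (495 ± 90.3, n = 7) and the acinar mean (484 ± 93.6, n = 10) differed by less than 1 SD, and delta (385 ± 64.2, n = 12) and beta means did as well. For Eif2ak3, the mean CPM of PP, delta, beta and alpha sums lay between 19.3 and 24.1 with SDs of 5.07 to 11.2, below acinar at 72.6 ± 42.3. For Sdf2l1 the order was beta (261 ± 83.1), acinar (136 ± 32.3), PP (63.8 ± 26.2), delta (61.4 ± 25.5) and alpha (45.0 ± 16.4), in which the neighbours PP, delta and alpha differed by less than their spread.

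In the related list, translocation and folding genes differed most often between beta and alpha cells. Of its 64 genes, 62 were tested, and 42 were higher and 1 lower in beta than in alpha cells, where 14.5% of all genes were higher and 12.2% lower. With the other totals the counts were 49 and 1, against 16.9% and 9.06% of all genes. Under TMM, 19 of 20 related genes of translocation, signal peptidase and glycosylation and 14 of 18 folding enzymes were higher, against 3 of 14 regulators. Fkbp11, a prolyl isomerase of secretory cells, was higher by 2.69 ± 0.19 on the log2 scale, Ero1lb, the disulfide oxidase enriched in beta cells, by 2.30 ± 0.20, and Sec11c, a signal peptidase subunit, by 1.96 ± 0.15. Spcs2 (1.35), Rpn2 (1.34) and Rpn1 (1.06), of the signal peptidase and the oligosaccharyl transferase, were higher as well. In acinar over beta cells 33 of 62 were higher and 15 lower under TMM, where 28.9% and 33.4% of all genes were. With the other totals 12 were higher and 36 lower, against 12.1% and 60.9% of all genes. Pdia2, the pancreatic disulfide isomerase, was higher by 6.61 ± 0.25, Bhlha15 (Mist1, an acinar transcription factor) by 4.07 ± 0.27, Prdx4, the ER peroxiredoxin, by 3.76 ± 0.20, Edem3 by 2.73 ± 0.24 and Fkbp11 by 2.33 ± 0.20. Tusc3, an oligosaccharyl transferase subunit, was lower by the log2 difference of -2.87 ± 0.16. In acinar over alpha cells 46 were higher and 5 lower under TMM, where 30.2% and 34.7% of all genes were. With the other totals 30 were higher and 17 lower, against 15% and 58.1% of all genes. Pdia2 (7.12), Bhlha15 (5.84) and Fkbp11 (5.02) were among the higher ones under TMM. The related genes named here kept their direction and their call with the other totals.

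Across single beta cells of the Control libraries, some members varied together. Pearson correlations of log2(UMIs per 100000 + 1) had a median of 0.133 over the 595 pairs of genes in 211 cells of Control replicate 1 and of 0.156 in 140 cells of Control replicate 2. The chaperone and disulfide enzyme pairs were highest. Hspa5 and Manf correlated at 0.633 and 0.574, Manf and Pdia6 at 0.571 and 0.602, Sdf2l1 and Pdia6 at 0.569 and 0.669, and Pdia3 and Pdia6 at 0.56 and 0.646. The median correlation of a sensor gene with the rest was 0.061 and -0.027 for Ern1, 0.024 and 0.049 for Eif2ak3 and 0.121 and -0.008 for Atf6, and that of Xbp1 was 0.108 and 0.15. Ern1, Eif2ak3 and Atf6 averaged 41.3, 21.9 and 67.2 CPM in beta sums, which is few UMIs per cell at the median of 61298. Low counts weaken a correlation, so these values do not show that the sensor genes vary apart from the rest. Cells shared a library and differed in depth, and the mean level of the members correlated with log2 depth at 0.561 and 0.584. These values are therefore descriptions with no test. Correlations of other genes are not given here, so they have no background and do not set the members apart.

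After STZ with implants, the members of surviving beta cells did not pass the test. In 8 STZ libraries against 3 Control libraries, 0 of the 35 genes were called by edgeR and 0 by DESeq2, with 2 at an unadjusted p under 0.05 in edgeR, where 2.83% of 10729 genes were called. With the replicate number as a block, 0 of the 35 and 85 of all genes were called, against 304 of all genes without it. The median log2 difference of STZ over Control was 0.12 for the 35 genes and 0.00 for all genes, with 22 positive and 13 negative values between -0.27 and 0.57. Standard errors ran from 0.15 to 0.50, so a gene that was not called is not shown to be equal in both groups. The STZ and Control values overlapped for all 35 genes, while 4.54% of all genes had no overlap.

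Hspa5 ran from 1296 to 2896 CPM in the 8 STZ beta sums (median 2005), against 1314, 1593 and 1711 in Control sums. Of the STZ libraries 6 lay above every Control and 1 below, and the log2 difference was 0.45 ± 0.23 (adjusted p = 0.47). Hsp90b1 ran from 1673 to 2402 in STZ sums (median 1926), against 1477, 1717 and 1631 in Control sums, with a log2 difference of 0.30 ± 0.16 (adjusted p = 0.495). Dnajc3 had the smallest unadjusted p. It ran from 540.4 to 1023 in STZ sums (median 676.0), against 504.6, 551.0 and 549.1 in Control sums. Only STZ_M2 fell among the Controls, and the log2 difference was 0.44 ± 0.19 (adjusted p = 0.339). Pdia4 ran from 98.5 to 269.0 in STZ sums (median 163.4), against 95.6, 116.1 and 145.6 in Control sums (0.52 ± 0.25, adjusted p = 0.402). Ssr3, a subunit of the translocon-associated complex, gave 0.39 ± 0.21 (adjusted p = 0.487).

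No sensor or transcription factor gene was called after STZ. Xbp1 ran from 282.2 to 548.6 CPM in STZ sums (median 408.5), against 398.1, 380.4 and 446.4 in Control sums. Atf6 ran from 49.3 to 81.2 in STZ sums (median 63.4), against 58.2, 79.9 and 68.5 in Control sums. For Ern1 the STZ range was 33.3 to 70.7 (median 49.0), against 32.2, 48.9 and 51.7 in Control sums. Eif2ak3 had 17.1 to 32.8 in STZ sums (median 20.4), against 20.7, 30.1 and 19.7 in Control sums. In all of these the STZ range reached to both sides of a Control value, and the log2 differences lay between -0.06 and 0.19 with adjusted p from 0.888 to 0.997. Wfs1 gave 0.05 ± 0.21, Manf 0.11 ± 0.24, Sdf2l1 -0.07 ± 0.26, Dnajb9 0.10 ± 0.32, Herpud1 0.21 ± 0.36 and Derl3 0.18 ± 0.50, none of them called.

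Single STZ libraries stood apart. STZ_M5 was the highest of the 8 STZ libraries for 21 of the 35 genes and STZ_D30 for 9, while STZ_M2, with 8 beta cells, was the lowest for 12. STZ_M5 lay above every Control for 26 genes and STZ_D30 for 24. The share of all genes with the same order was not counted, so these counts do not set the members apart from other genes. Derl3 reached 99.4 CPM in STZ_M5, against 45.4 in the next STZ library, and Herpud1 reached 766 there, against 500 in STZ_D12 replicate 1. The summed level of the 35 genes was 21920 CPM in STZ_M5 and 20293 in STZ_D30, against 13484, 14257 and 16213 in the Controls and 13224 to 17482 in the other STZ libraries. Each time point other than day 12 is 1 library, so these values have no replicate check.

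**Figure D3:**
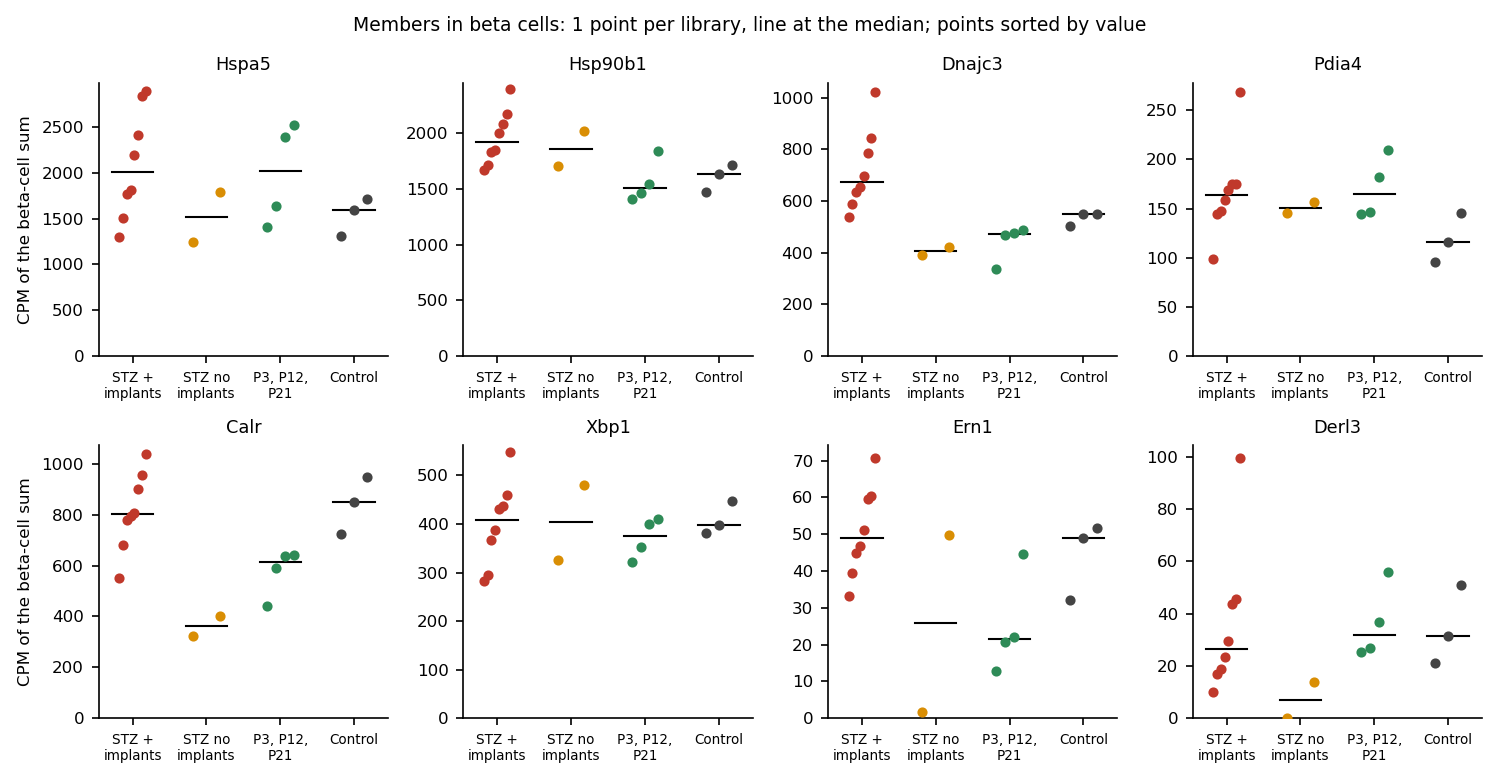
CPM of the beta-cell sum (linear axes from 0) for 8 of the 35 genes, 1 point per library, in STZ libraries with implants, STZ without implants, postnatal and Control libraries, with lines at the medians. Hspa5 spreads from 1296 to 2896 in STZ libraries with implants and from 1314 to 1711 in Controls, and Calr is at or below 643 in every postnatal library.

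Markers of other cells moved between the beta sums. The summed beta markers made up 120530 to 251338 CPM in STZ sums and 240962 to 249969 in Control sums. PP markers made up 9049 to 31529 in STZ sums and 2744 to 5529 in Control sums, and acinar markers 15859 to 28501 in STZ sums and 8106 to 24919 in Control sums. Immune markers stayed at or under 67.5 and endothelial and stromal markers at or under 11.8 in these sums. Some raw read file names begin with a tag, called a sequencing run here, though the labels do not say what it shares. Among the libraries with a tag, 1 run held beta cells of both arms (STZ_D6, STZ_D30, STZ_M2 and Control replicate 2). Within it the Control arm is 1 library, and 0 of the 35 genes and 0.0255% of all genes were called. The part of these markers in the levels of the members was not tested.

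In the related list, 4 of 61 genes tested were called in beta cells after STZ, where 2.83% of all genes were called. These 4 concern oxidation in the ER, ERAD and a membrane-bound transcription factor. Ero1lb passes electrons from disulfide isomerases to oxygen. It ran from 212.3 to 726.6 CPM in STZ sums (median 565.2), against 1399, 1569 and 1385 in Control sums. Every STZ library lay below every Control, and the log2 difference was -1.51 ± 0.25 (adjusted p = 0.0015). Prdx4, which uses the peroxide made by that reaction to form disulfides, ran the other way, from 95.2 to 173.0 in STZ sums (median 135.7), against 63.4, 53.2 and 53.2 in Control sums (1.28 ± 0.19, adjusted p = 5.66e-04). Every STZ library lay above every Control. Of all genes, 4.54% had STZ and Control values that did not overlap. Ero1l, the other oxidase and one of the 35, was at -0.26 ± 0.27 (adjusted p = 0.839).

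Erlec1, a lectin of ERAD, ran from 101.0 to 160.5 CPM in STZ sums (median 128.0), against 67.4, 88.3 and 71.4 in Control sums, again with no overlap (0.79 ± 0.18, adjusted p = 0.0175). Its call did not hold when any 1 Control library was left out (adjusted p = 0.0531 to 0.164) or with the replicate number as a block (adjusted p = 0.142). Creb3l3, an ER-bound transcription factor, had 0 UMIs in each of the 3 Control sums and 0 to 27 UMIs in the STZ sums (adjusted p = 0.0126, or 0.11 with the block). Within that sequencing run, with 1 Control library, the log2 differences were -0.86 for Ero1lb, 1.47 for Prdx4 and 0.55 for Erlec1, none of them called. Acinar cells had more Prdx4 than beta cells (494 ± 116 in STZ acinar sums, n = 8, and 430.7 and 736.8 in the Control ones). In other STZ sums Prdx4 averaged 199 ± 43.7 CPM in PP (n = 6), 155 ± 25.4 in alpha (n = 8) and 152 ± 40.7 in delta cells (n = 8). Ero1lb averaged 63.2 ± 16.4, 122 ± 22.7 and 37.9 ± 16.6 in these. In the PP sums Creb3l3 averaged 8.38 ± 6.69 and Erlec1 88.3 ± 45.9. Beta cells in which another hormone gene or Prss2 reached 1000 UMIs per 100000 were left out in 1 alternative. There Ero1lb, Prdx4 and Erlec1 kept their direction and call. The acinar and PP markers given above moved beside these genes, and their part in the remaining cells was not tested.

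**Figure D4:**
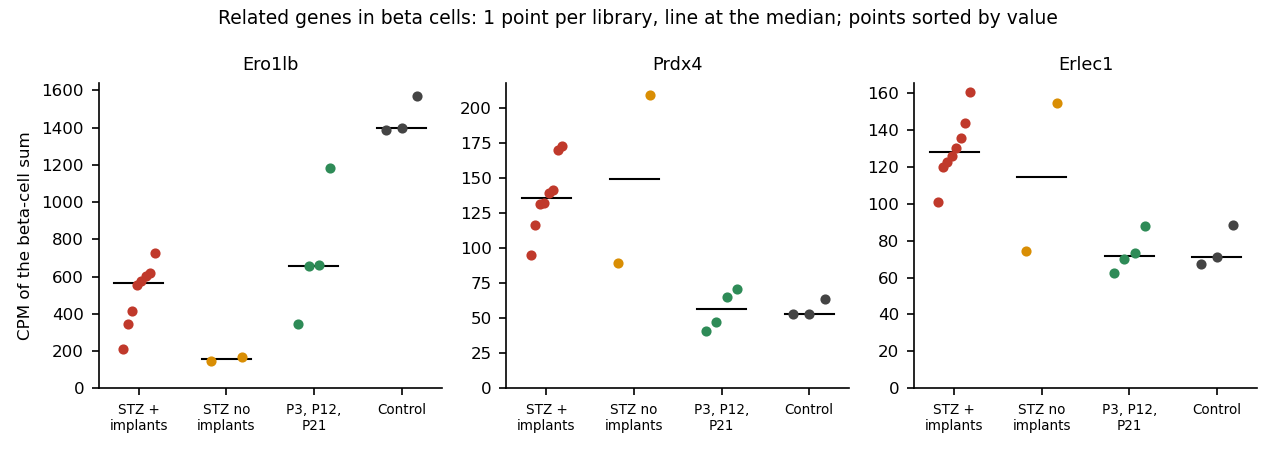
CPM of the beta-cell sum (linear axes from 0) for Ero1lb, Prdx4 and Erlec1, 1 point per library and lines at the medians, in STZ libraries with implants, STZ without implants, postnatal and Control libraries. The STZ libraries with implants lie below the Controls for Ero1lb and above them for Prdx4 and Erlec1.

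At day 12 alone (2 libraries against 3 Controls), 0 of the 35 genes were called by edgeR or DESeq2 and 1 had an unadjusted p under 0.05, where 0.519% of all genes were called. Sec61a1 gave the smallest (163.8 and 107.1 CPM at day 12, against 164.0, 214.6 and 263.6 in Controls, log2 difference -0.68 ± 0.30, adjusted p = 0.542). Ero1lb was called there with -1.68 (adjusted p = 0.0034), and not without STZ_D12 replicate 1 (adjusted p = 0.0765). Along log2 of days after STZ, 0 of the 35 genes were called by edgeR or DESeq2 and 0 had an unadjusted p under 0.05, where 0% of 6656 genes were called. Sec61a1 (0.13 ± 0.06 per doubling of time) and Derl3 (0.26 ± 0.14) had the smallest p, and the slope of Derl3 was -0.02 without STZ_M5.

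Without implants at month 2, beta sums held only 5 and 11 cells, against 8 cells with implants. The arm with implants is 1 library, so the spread was taken from the other groups of beta cells. None of the 35 genes was called by edgeR or DESeq2, with 1 at an unadjusted p under 0.05, where 0.0977% of all genes were called. That gene was Calr, the calcium-binding lectin chaperone, with 321.9 and 403.3 CPM without implants, against 679.3 with implants (log2 difference -1.01 ± 0.32, adjusted p = 0.218). Without STZ_M2_NoIns replicate 2, which sets 1 library of 5 cells against 1 of 8 with the spread of the other groups, 2 members were called, Calr among them (adjusted p = 0.0436), and so were 5.71% of all genes. Ero1lb had 169.2 and 146.8 CPM without implants, against 618.7 with implants (-2.09, adjusted p = 0.0156). PP markers made up 38040 and 51848 CPM of the sums without implants and 31529 CPM of the sum with implants, and their part was not tested.

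Alpha cells fell into a larger and a smaller cluster. The smaller one held 28 of 33 alpha cells in Control replicate 1 and 39 of 42 in STZ_M2_NoIns replicate 1, but 0 of 32 in Control replicate 2, 0 of 24 in STZ_M2_NoIns replicate 2 and at most 3 in any STZ library with implants. The part of these clusters in the following values was not tested. In alpha cells, 0 of the 35 genes were called after STZ by edgeR or DESeq2, with 1 at an unadjusted p under 0.05, where 0% of 10833 genes were called. Ssr3, with 156.3 to 233.3 CPM in 8 STZ sums (median 190.5), against 140.9 and 141.5 in 2 Control sums, gave 0.46 ± 0.22 (adjusted p = 0.997). Without against with implants at month 2, again 0 were called by either tool and 0 had an unadjusted p under 0.05 (0.12% of all genes called). The difference of STZ with implants over Control in beta cells minus that in alpha cells was tested itself. It used 9 libraries, of which 2 were Control, since Control replicate 3 held 1 alpha cell. Of the 35 genes, 0 were called by either tool, with 2 at an unadjusted p under 0.05 and 0.263% of all genes called. Edem2 had the smallest p (0.93 ± 0.37, adjusted p = 0.54), followed by Creld2 (0.80 ± 0.33, adjusted p = 0.554). Ero1lb of the related list was called (-1.72, adjusted p = 0.0318) and was lost without Control replicate 1 (adjusted p = 0.538) or replicate 2 (adjusted p = 0.252).

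In acinar cells after STZ, 0 of the 35 genes were called by edgeR and 1 by DESeq2, with 6 at an unadjusted p under 0.05, where 0% of 11010 genes were called by edgeR and 3.61% by DESeq2. Only 2 Control libraries held at least 10 acinar cells. The gene called by DESeq2 was Sec61b, a channel subunit (447.0 to 666.2 CPM in 8 STZ sums, median 571.6, against 807.7 and 524.5 in Controls). Its log2 difference was -0.74 ± 0.21 with an adjusted p of 0.112 in edgeR and 0.0162 in DESeq2, and the STZ and Control values overlapped. Acinar cells fell into 2 clusters, and the one led by Reg3b held from 7 of 66 (STZ_D12 replicate 2) to 92 of 137 cells (STZ_D30) in STZ libraries, against 14 of 21 and 68 of 70 in the Control ones. With that cluster alone Sec61b was at -0.40 (adjusted p = 0.9965). Hyou1 ran from 23.5 to 110.7 in STZ sums (median 56.7), against 28.4 and 19.0 in Control sums (0.72 ± 0.29, adjusted p = 0.199).

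Postnatal beta cells were collected to judge maturation, and no member passed the edgeR test between them and adult Control. In 4 postnatal libraries against 3 Controls, 0 of the 35 genes were called by edgeR and 1 by DESeq2, with 9 at an unadjusted p under 0.05, where 0.485% of 12581 genes were called by edgeR and 2.41% by DESeq2. With the replicate number as a block, 0 of the 35 and 0 of all genes were called, against 61 of all genes without it. The median log2 difference of postnatal over adult was -0.22 for the 35 genes and 0.03 for all genes, with 26 negative and 9 positive values. The postnatal range did not overlap that of Control for 4 genes, being lower for Calr, Dnajc3 and Derl1 and higher for Syvn1. Of all genes 13.4% did not overlap, 3.2% being lower and 10.2% higher.

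Calr was the gene called by DESeq2. It had 643.3 CPM at P3, 589.3 and 440.3 at P12 and 638.3 at P21, against 850.8, 947.8 and 723.1 in Control sums. All postnatal libraries lay below all Controls, and the log2 difference was -0.72 ± 0.19 (adjusted p = 0.132 in edgeR and 0.0141 in DESeq2). Ern1 had 20.8 at P3, 12.9 and 22.1 at P12 and 44.5 at P21, against 32.2, 48.9 and 51.7 in Control sums (-0.99 ± 0.34, adjusted p = 0.248). Only P21 reached into the Control range, and without it Ern1 was called (adjusted p = 0.0291). The share of all genes called in that fit is not given here. Dnajb9, which holds back IRE1 and assists ERAD, gave -0.78 ± 0.27 (adjusted p = 0.248) and Derl1, a channel-associated ERAD protein, -0.54 ± 0.20 (adjusted p = 0.281). Dnajc3 had 475.2 at P3, 486.9 and 338.0 at P12 and 467.9 at P21, against 504.6, 551.0 and 549.1 in Control sums (-0.45 ± 0.19, adjusted p = 0.385). Acinar markers made up 821 to 9112 CPM of postnatal and 8106 to 24919 of Control beta sums, and their part was not tested.

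From P3 to P12 and P21, 0 of the 35 genes were called by edgeR or DESeq2 and 0 had an unadjusted p under 0.05, where 0% of 13302 genes were called. P3 is 1 library, and its spread was taken from the replicated groups. Sec61a1 had 248.7 and 218.8 CPM at P12 and 221.4 at P21, against 397.1 at P3 (-0.63 ± 0.35, adjusted p = 1.00). Wfs1 had 60.2 and 58.3 at P12 and 94.6 at P21, against 127.5 at P3 (-0.60 ± 0.34, adjusted p = 1.00). Ero1lb of the related list had 345.3 at P3, 661.1 and 656.3 at P12 and 1186 at P21, against 1399, 1569 and 1385 in Control sums, all below the Controls, and postnatal over adult it was not called (adjusted p = 0.115).

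For genes with and without an ERSE or ERSE-II, the medians were as follows. The 10 with a match had a median log2 difference of 1.07 in beta over alpha cells, against 1.15 in the 25 without or with no promoter entry. In acinar over beta cells the medians were 0.45 and 0.57, and in STZ over Control beta cells 0.25 and 0.05. The groups hold few genes, the values are a description with no test, and these letters in a window do not show that a factor binds there.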

How the data were processed

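Counts of UMIs per gene and cell were deposited by the authors for 2999 cells and 40824 genes. The mm10 genome, UMI-tools 0.5.0, TopHat2 2.1.0, SAMtools 1.3.1 and featureCounts 1.5.3 are named, in no order, by the submitters' processing notes. Per the labels' protocols, cDNA was amplified over 18 and then 4 PCR cycles. No cell was left out here; the lowest had 7751 UMIs, 0 cells had the counts of another, 0 genes of the table were mitochondrial by symbol, and no doublet caller was run. Whether doublets had been removed is not given in the sources used here.

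Members and lists were chosen with earlier results of these data known. Cells were clustered on 300 variable genes, the members and the related list left out, with 15 principal components, 20 neighbours and Leiden resolutions of 0.03 and then 0.3 in clusters of at least 300 cells (Python 3.11.15, scikit-learn 1.9.0, leidenalg 0.10.2). With members kept, 2994 cells had the same class. Counts summed per library and class were tested in edgeR 4.0.16 (R 4.3.3; TMM, filterByExpr, quasi-likelihood F test without robust estimation), over all genes. SEs are the absolute log2 difference over the square root of F. DESeq2 1.42.0, no low-count filter, leave-one-out fits, the replicate block, totals without hormone and enzyme genes, beta cells without other hormones, at least 20 beta cells and the rank of time were alternatives. Months were taken as 30 days, and STZ_D6 as day 6. The scripts were checked on simulated counts.

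Named genes followed a fixed rule: Hspa5, Hsp90b1, Sdf2l1, Manf, Herpud1, Dnajb9, Xbp1, Atf6, Ern1, Eif2ak3, Wfs1 and Derl3, at most 12 called members per comparison with the smallest adjusted p, the 5 smallest unadjusted p where fewer than 3 were called, and at most 6 called related genes; others were chosen after their values were seen. The labels tag the replicate number as batch without saying what it shares. Correlations of same-numbered deviations ran from -0.074 to 0.178 over 9175 genes and passed 0.1 for every number in only 3 of 6 pairs of groups, so the block was an alternative. Whether the numbers pair libraries is not known.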

Additional observations from a re-analysis of the deposited data

Results flagged for a closer look

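In 46 groups of 4 or 8 libraries checked for 1 value far from the others, 4 were found, and chance gives about 1 in 20. Pdia4 in beta cells was 269.0 CPM in STZ_M5, the highest of 8 STZ libraries with implants (next 174.9), with a gap of 0.552 of the range against a limit of 0.526. Derl3 was 99.4 in STZ_M5, the highest of those 8 (next 45.4, gap 0.604). Dnajc3 was 338.0 in P12 replicate 2, the lowest of 4 postnatal libraries (next 467.9, gap 0.872 against a limit of 0.829). Sec61a1 was 397.1 at P3, the highest of 4 postnatal libraries (next 248.7, gap 0.833).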

How the results depend on the processing

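Of 179 alternative counts of called members, 174 stayed within 1.5 times the main count. Postnatal against adult Control gave 1 with DESeq2, 2 with no low-count filter (Dnajb9, adjusted p = 0.025, and Ern1, 0.0253) and 0 to 1 with a library left out. With DESeq2 2.41% of all genes were called. The shares of all genes in the other settings are not given here, so those counts have no background. STZ_M2_NoIns against STZ_M2 in beta cells gave 0 to 2 with a library left out, and STZ against Control in acinar cells gave 1 with DESeq2. Of 2211 values of single genes, 2146 kept direction and side of the threshold, 46 reversed, 13 were weaker and 6 stronger.

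With totals without hormone and enzyme genes, acinar over beta reversed for Ern1 (-0.72), Hspa5 (-0.72), Manf (-0.84) and Sdf2l1 (-0.32), and STZ over Control in beta cells for Wfs1 (-0.016). Manf in acinar over beta was -1.12e-04 with no low-count filter. In STZ over Control in beta cells, Eif2ak3 was 6.05e-04 with at least 20 beta cells and 8.88e-04 with DESeq2. Sdf2l1 was 0.10 within 1 sequencing run and 0.11 without beta cells with other hormones, Wfs1 was -0.022 in the last, and Xbp1 was 0.00102 with DESeq2, 0.22 within 1 run and 0.028 without such cells. None of these STZ values was called, before or after, and the cause was not tested.

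With 1 library left out, STZ over Control in beta cells ran from -0.19 to 0.037 for Atf6, -0.32 to 0.57 for Derl3, -0.10 to 0.53 for Dnajb9, -0.14 to 0.17 for Eif2ak3, -0.026 to 0.35 for Ern1, -0.017 to 0.53 for Herpud1, -0.0039 to 0.35 for Manf, -0.23 to 0.038 for Sdf2l1, -0.069 to 0.22 for Wfs1 and -0.10 to 0.089 for Xbp1. Over time it ran from -0.13 to 0.0063 for Calr and -0.019 to 0.44 for Derl3, in alpha cells from -0.068 to 0.97 for Herpud1 (STZ over Control) and -0.054 to 1.26 for Ern1 (without over with implants), and in acinar over beta from -0.0062 to 0.22 for Manf.

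The replicate block, where it is not known whether the numbers pair libraries, gave 0 called members in every comparison it could be fitted to, and called 85 genes of all against 304 for STZ in beta cells and 0 against 61 for postnatal beta cells. Fits without P3 or P21 (P12 and P21 against P3), without STZ_M2 (against STZ_M2_NoIns), and with only the other acinar cluster were not estimable.

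Beta sums held 5 to 211 cells, and most times were 1 library. With at least 20 beta cells a library, 0 members were called after STZ.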
